A study of Homo sapiens with 9 samples.

Results

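The MHC class I antigen presentation pathway was followed in SKMEL28 cells, an established human melanoma line, through 9 genes. These were HLA-B, HLA-C, HLA-E, HLA-F, B2M, TAP1, TAP2, TAPBP and NLRC5, taken by symbol from a table of 48162 genes. They matched 10 rows, because TAP2 is listed under 2 identifiers, and 1 of these (ENSG00000250264) had no count in any library. Each of the 9 symbols was among the 15776 genes with enough counts to be tested. Cells were infected with lentivirus carrying a short hairpin RNA against GFP (shCont), against p16 (shp16), or against both p16 and ATR (shp16+shATR), and 3 RNA-seq libraries were made per group. Infected cells were selected in 1 µg/ml puromycin for 3 days and kept in medium with 5% FBS. The sources used here do not state which ATR hairpin was used, nor whether the shp16 cells received a second control virus. The libraries of a group are described by the study as technical replicates of a single experiment, so the p-values below measure the spread between these libraries and not that between separate infections.

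MHC class I molecules display peptides from inside the cell to CD8+ T cells. Proteasomes produce the peptides, the TAP1-TAP2 transporter moves them into the endoplasmic reticulum, aminopeptidases trim them, and tapasin (TAPBP) holds the transporter and the empty class I molecule together for loading. The loaded molecule is a heavy chain (classical HLA-B and HLA-C, or non-classical HLA-E and HLA-F) bound to the light chain beta-2-microglobulin (B2M). NLRC5 is the transactivator of class I genes, and interferon-gamma acts on the same promoters, in part through IRF1. Melanoma cells are known for reduced class I expression as a route of escape from T cells.

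The upstream sequences of 6 members are shown. Of these, HLA-B and HLA-F were called lower and TAP1 higher in shp16, and TAP2 was called lower in shp16+shATR than in shp16. HLA-C and B2M were not called in any comparison of all 9 libraries. Each run is the 250 bases before the RefSeq gene start in GRCh38.p14, on the strand of the gene, with motif matches in capitals. Matches on both strands were marked for the interferon-stimulated response element (ISRE core TTTCNNTTTC, and its shorter form TTTCNNTT, which every core match contains), the CRE core TGACG (from the cAMP response element), the CCAAT box, and the NF-kB consensus, and neighbouring or overlapping matches run together. HLA-B is at chr6:31357180-31357429 (minus strand), HLA-C at chr6:31272093-31272342 (minus), HLA-F at chr6:29723184-29723433 (plus) and B2M at chr15:44711267-44711516 (plus). TAP1 is at chr6:32853705-32853954 (minus, the upstream one of 2 annotated starts) and TAP2 at chr6:32838740-32838989 (minus).
HLA-B: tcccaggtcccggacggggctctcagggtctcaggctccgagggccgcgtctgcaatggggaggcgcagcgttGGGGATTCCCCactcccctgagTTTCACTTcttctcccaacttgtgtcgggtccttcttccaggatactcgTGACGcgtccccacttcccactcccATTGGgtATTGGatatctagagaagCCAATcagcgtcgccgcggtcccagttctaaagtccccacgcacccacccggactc
HLA-C: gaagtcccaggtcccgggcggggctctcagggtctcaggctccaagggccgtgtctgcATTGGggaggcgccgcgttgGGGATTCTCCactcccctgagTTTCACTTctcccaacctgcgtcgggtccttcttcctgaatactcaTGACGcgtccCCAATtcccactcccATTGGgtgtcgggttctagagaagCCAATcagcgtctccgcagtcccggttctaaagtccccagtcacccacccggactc
HLA-F: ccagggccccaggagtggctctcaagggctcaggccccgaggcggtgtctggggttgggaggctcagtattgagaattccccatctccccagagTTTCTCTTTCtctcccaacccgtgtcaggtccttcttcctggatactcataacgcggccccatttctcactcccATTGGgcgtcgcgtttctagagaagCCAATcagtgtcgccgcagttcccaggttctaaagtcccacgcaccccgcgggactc
B2M: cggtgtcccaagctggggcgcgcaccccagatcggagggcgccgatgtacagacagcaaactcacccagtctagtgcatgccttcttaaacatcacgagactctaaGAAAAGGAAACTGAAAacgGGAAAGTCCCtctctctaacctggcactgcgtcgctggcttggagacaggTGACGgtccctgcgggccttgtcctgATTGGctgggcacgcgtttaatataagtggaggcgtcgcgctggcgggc
TAP1: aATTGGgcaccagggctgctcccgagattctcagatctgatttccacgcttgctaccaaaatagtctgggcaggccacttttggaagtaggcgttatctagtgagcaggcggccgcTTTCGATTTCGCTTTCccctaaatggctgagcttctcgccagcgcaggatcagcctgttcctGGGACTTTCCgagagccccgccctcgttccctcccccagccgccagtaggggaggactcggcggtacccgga
TAP2: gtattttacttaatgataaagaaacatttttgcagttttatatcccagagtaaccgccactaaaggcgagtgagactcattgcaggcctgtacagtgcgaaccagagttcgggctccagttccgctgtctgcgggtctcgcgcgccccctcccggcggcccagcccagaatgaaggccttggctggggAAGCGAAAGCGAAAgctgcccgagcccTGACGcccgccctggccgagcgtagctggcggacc

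The ISRE core was found in the windows of HLA-F, B2M, TAP1, TAP2 and TAPBP, whereas HLA-B and HLA-C held only the shorter form. Of all 35116 RefSeq promoter windows of this length, 3.02% held the core and 20.3% the shorter form. The CRE core was present in HLA-B, HLA-C, B2M and TAP2 (21.2% of all windows), and CCAAT in HLA-B, HLA-C, HLA-F, B2M and TAP1 (32.0% of all windows). The NF-kB consensus was present in HLA-B, HLA-C, B2M, TAP1 and TAPBP, against 5.21% of all windows. The TAP1 matches are those of its upstream start, and the window of its other start (chr6:32852762-32853011) held 0 matches of each motif. Windows were matched for 7 of the 9 members, which leaves out HLA-E and NLRC5. The motif letters describe the sequence and no binding was measured. HLA-B and HLA-C held the same kinds of motif, and a link between motifs and calls was not tested.

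**Figure D1:**
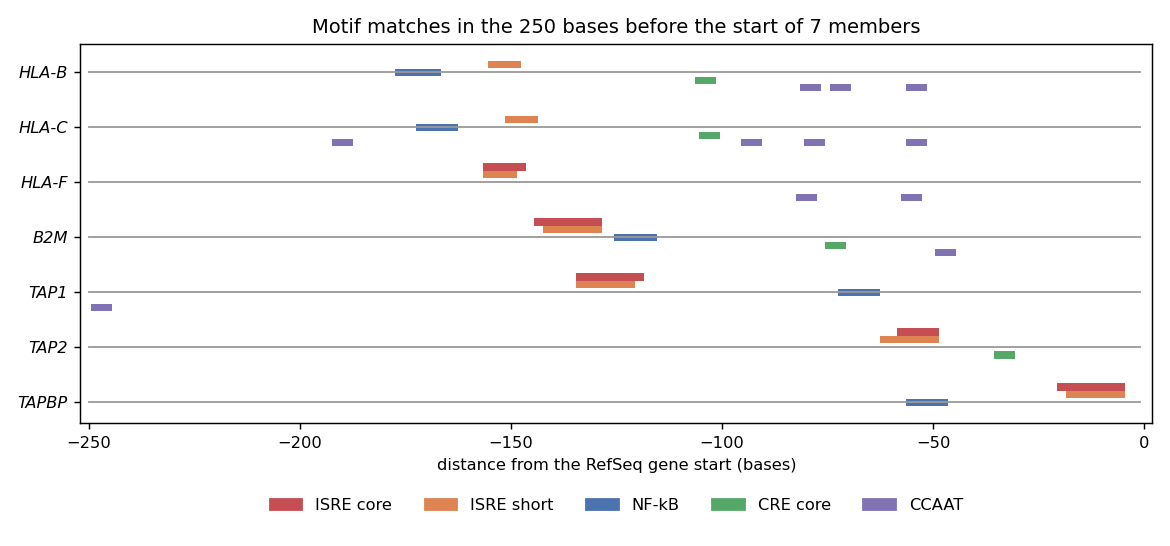
Motif matches before the RefSeq gene start of 7 members, for TAP1 the upstream start. The horizontal axis is the distance from the start in bases and each bar is 1 match, with the shorter form of the ISRE labelled ISRE short; the ISRE core lies between −156 and −119 in HLA-F, B2M and TAP1 and closer to the start in TAP2 and TAPBP, and HLA-B and HLA-C have none.

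Total counts were between 17314662 and 23588174 per library, and levels are given as TMM-normalized CPM, counts scaled to the size of the library, unless FPKM, which also divides by gene length, is named. Groups were compared by edgeR's quasi-likelihood test over all 15776 genes, with a Benjamini-Hochberg adjusted p under 0.05 as the threshold. Of the targeted genes, CDKN2A, which encodes p16, was at 126 ± 31.7 CPM in shCont libraries, at 90.5 ± 11.2 in those of shp16 and at 85.0 ± 4.33 in those of shp16+shATR, with a log2 fold change of −0.48 in shp16 against shCont (adjusted p = 0.0723, edgeR), and −0.26 without shCont replicate 1. ATR was at 45.9, 93.5 and 96.4 CPM in shCont, so that shCont replicate 1 was near the level of the ATR knockdown. It was at 87.5 ± 5.32 CPM with p16 knockdown alone and at 40.3 ± 0.637 with both (SD over 3 libraries), a log2 fold change of −1.12 (adjusted p = 0.0128, edgeR), which missed the threshold without shp16 replicate 1 or any 1 of the shp16+shATR libraries (adjusted p from 0.0554 to 0.0707). Next, shp16 replicate 1 and shCont replicate 1 stood apart. In shp16 replicate 1, HLA-B, HLA-C and B2M were each lower than the mean of the other shp16 libraries by more than 1 on the log2 scale, which placed them among the lowest 3.48% of the genes tested. The melanosome gene PMEL was also low in that library, at 3258 CPM against 7839 and 7763. In shCont replicate 1, deviations from the mean of the other 2 shCont libraries had an SD of 0.51 on the log2 scale. Deviations taken in the same way had an SD of 0.24 in replicate 2 and 0.32 in replicate 3. Counts of replicate 1 differed from theirs by 68.5 and 83.4 times the chi-square of sampling noise, whereas the other pair differed by 5.15 times. Across 10586 genes those deviations correlated with GC content at r = 0.57 in shCont replicate 1. The values were −0.43 and −0.59 in replicates 2 and 3, whose deviations were taken in part from replicate 1. The correlations with log2 gene length were −0.61, 0.52 and 0.59. The part of RNA composition in the results was not tested. Of the markers of the labelled cells, 7 of 7 melanoma genes were tested and summed to between 7673 and 14867 CPM per library.

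In shp16 cells, HLA-B and HLA-F mRNA were lower and TAP1 mRNA was higher than in shCont cells. The other 6 members did not pass the threshold. Thus 2 of 9 members were called lower, against 7.59% of all genes tested, and 1 of 9 was called higher, against 7.23%. The members had a median log2 fold change of −0.27, against −0.02 over all genes tested. Libraries of the 2 groups did not overlap for 5 of the 9 members, against 33.6% of all genes tested. Without shp16 replicate 1, HLA-B and HLA-F were the members called, against 8.95% of all genes. Without that library and shCont replicate 1, 5 members were called, HLA-B, HLA-E and HLA-F lower and TAP1 and TAP2 higher, but calls also rose over all genes, to 32.7%.

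HLA-B (ENSG00000234745, chromosome 6 from 31321649 to 31324965 in the GRCh37 coordinates of the deposited table) encodes a classical heavy chain that presents peptides to CD8+ T cells. Its levels were 53.3, 41.3 and 32.2 CPM in shCont replicates 1 to 3, and 8.83, 22.9 and 20.8 CPM in those of shp16. In shp16+shATR they were 19.96, 18.9 and 16.3 CPM. All shCont libraries lay above all other libraries, and the lowest was shp16 replicate 1. The log2 fold change was −1.27 ± 0.29 (SE) in shp16 against shCont (adjusted p = 0.0131, edgeR). Without shp16 replicate 1 it was −0.95 (adjusted p = 0.0161), and without both libraries that stood apart it was −0.75 (adjusted p = 6.46e-05). The call was lost in a fit of shp16 and shCont alone without shp16 replicate 1, at −0.95 (adjusted p = 0.0781).

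HLA-F (ENSG00000204642, chromosome 6 from 29690552 to 29706305) is a non-classical heavy chain known as a ligand of receptors on natural killer cells. It had 168, 115 and 105 CPM in shCont. The shp16 libraries had 58.4, 76.9 and 75.9 CPM, and those of shp16+shATR 95.0, 96.1 and 89.6 CPM. The shp16 libraries lay below all libraries of both other groups, with no overlap. The log2 fold change was −0.88 ± 0.17 (SE) against shCont (adjusted p = 0.00577, edgeR), and −0.53 (adjusted p = 5.47e-06) without both libraries that stood apart. In the fit of shp16 and shCont alone without shp16 replicate 1 it was −0.76 (adjusted p = 0.127), which did not pass. HLA-F overlaps HLA-F-AS1, an antisense gene at a mean of 5.95 CPM, and the labels do not say that reads were counted by strand, so reads of the pair in the shared bases cannot be told apart.

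HLA-C (ENSG00000204525, chromosome 6 from 31236526 to 31239907), the other classical heavy chain followed, did not pass the threshold in any of the comparisons. Its levels were 131, 75.3 and 78.7 CPM in shCont libraries, and 31.8, 82.3 and 87.7 CPM in those of shp16. The groups overlapped, with shCont replicate 1 high and shp16 replicate 1 low. The log2 fold change was −0.50 ± 0.32 (SE, adjusted p = 0.330, edgeR) with all libraries, −0.16 without shp16 replicate 1 and 0.14 without both. In shp16+shATR the levels were 77.2, 73.5 and 58.6 CPM.

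Because HLA-B and HLA-C were both low in shp16 replicate 1, their ratio was examined within each library, a comparison chosen after the values were seen. The FPKM of HLA-B divided by that of HLA-C was 0.494, 0.666 and 0.497 in shCont, 0.338, 0.337 and 0.288 in shp16, and 0.314, 0.313 and 0.338 in shp16+shATR. Neither group with the p16 hairpin overlapped shCont, and shp16 replicate 1 was close to the other shp16 libraries in this ratio. The mean fell from 0.552 ± 0.0985 to 0.321 ± 0.0284 (SD, n = 3 each), with an exact (2-sided) permutation p of 0.1, the smallest that 3 libraries against 3 allow. Between shp16+shATR and shp16 the means were 0.321 ± 0.0142 and 0.321 ± 0.0284, and the exact permutation p was 0.8. Of the 50-base windows of HLA-B transcripts in the reference annotation, 2.48% also occur in HLA-C, and counts of both genes also depend on how closely the alleles of this line match the reference, which was not examined.

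B2M (ENSG00000166710, chromosome 15 from 45003675 to 45011075), the light chain shared by all class I molecules, had 509, 402 and 380 CPM in shCont and 176, 376 and 369 CPM in shp16. The low value was shp16 replicate 1 and the high one shCont replicate 1, with the other 4 between 369 and 402 CPM. Its log2 fold change was −0.49 ± 0.24 (SE, adjusted p = 0.199, edgeR), and −0.07 without both libraries that stood apart. HLA-E (ENSG00000204592, chromosome 6 from 30457244 to 30461982), which presents leader peptides of other class I molecules to natural killer cells, had 387, 281 and 285 CPM in shCont, and 285, 253 and 251 CPM in shp16. Its log2 fold change was −0.27 ± 0.13 (SE, adjusted p = 0.191, edgeR), and unlike HLA-B it was not low in shp16 replicate 1. The value was −0.33 without that library, −0.11 without shCont replicate 1 (adjusted p = 0.344) and −0.17 without both (adjusted p = 0.0239).

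Of the peptide transporter, TAP1 rose in shp16 and TAP2 had a difference of like size that did not pass. TAP1 (ENSG00000168394, chromosome 6 from 32812986 to 32821755) had 23.9, 24.2 and 20.4 CPM in shCont. It had 33.0, 28.2 and 29.3 CPM in shp16 libraries, and 21.1, 22.5 and 23.4 CPM in shp16+shATR. All shp16 libraries lay above all libraries of both other groups. The log2 fold change against shCont was 0.40 ± 0.12 (SE, adjusted p = 0.0394, edgeR). It remained positive in all 22 alternative analyses, from 0.33 to 0.45, but missed the threshold in 14 of them. The call was lost without any 1 library other than shCont replicate 1, with adjusted p up to 0.119 without shp16 replicate 1. TAP2 (ENSG00000204267, chromosome 6 from 32789610 to 32806557) had 11, 14.7 and 14.5 CPM in shCont. The shp16 libraries were at 17.3, 18.1 and 18.5 CPM and the shp16+shATR libraries at 11.4, 12.8 and 13.2 CPM. Again the shp16 libraries were the highest, with a log2 fold change of 0.42 ± 0.14 (SE, adjusted p = 0.0607, edgeR) against shCont. DESeq2 called this difference (0.43, adjusted p = 0.0395), and so did edgeR without both libraries that stood apart (0.32, adjusted p = 0.0322). It was 0.45 without shp16 replicate 1 and 0.29 without shCont replicate 1, neither of which passed. The TAP1 interval overlaps PSMB9 on the opposite strand over 8770 bases, and PSMB9 was at a mean of 20.3 CPM, so their reads cannot be told apart where exons are shared.

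TAPBP (ENSG00000231925, chromosome 6 from 33267471 to 33282164) was nearly level, between 144 and 166 CPM in all 9 libraries. Its log2 fold change was −0.06 ± 0.09 (SE) for shp16 against shCont, and 0.09 ± 0.09 (SE) for shp16+shATR against shp16, with adjusted p of 0.715 and 0.666 (edgeR).

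**Figure D2:**
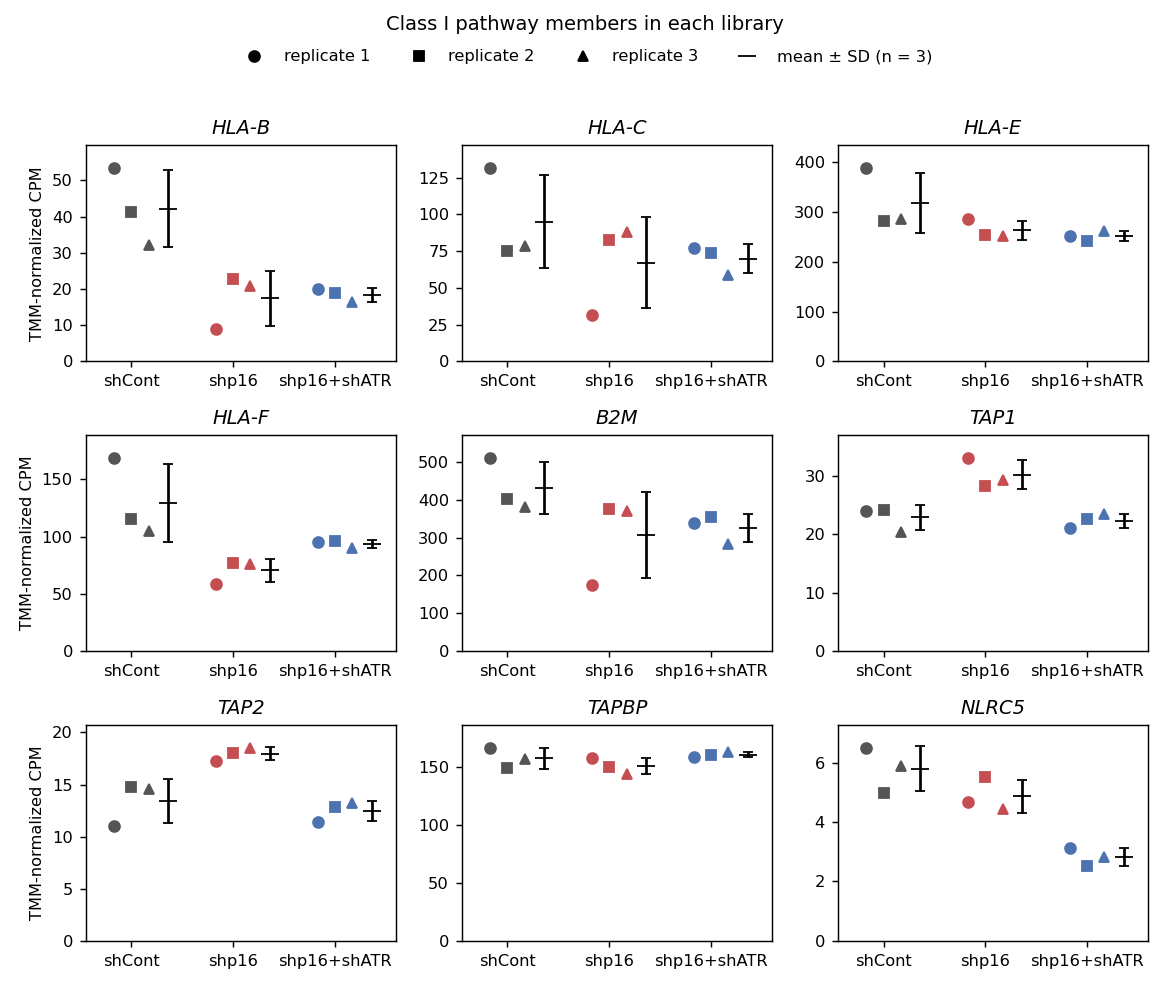
TMM-normalized CPM of each member in the 9 libraries, by group; the point shape marks the replicate, and the bar beside each group is the mean ± SD (n = 3). HLA-B is higher in shCont than elsewhere, TAP1 and TAP2 are highest in shp16, NLRC5 is lowest in shp16+shATR, and shp16 replicate 1 is low for HLA-B, HLA-C and B2M.

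When ATR was knocked down in addition to p16, NLRC5, TAP1 and TAP2 mRNA were lower than in shp16 cells. The heavy chain genes and B2M did not pass the threshold. Of the 9 members, 3 were called lower, against 3.49% of all genes tested. By edgeR 0 members were called higher, against 2.73% of all genes. At an unadjusted p under 0.05 there was 1 member higher, and DESeq2 called 0. The members had a median log2 fold change of 0.05, and all genes one of 0.00. The libraries did not overlap for 5 of 9 members, against 37.7% of all genes. Without shp16 replicate 1 none of the 9 members passed, the lowest adjusted p being 0.0571 for NLRC5 (edgeR), against 3.13% of all genes called. Without both that library and shCont replicate 1 there were 6 calls, HLA-F higher and 5 members lower, against 26.7% of all genes.

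NLRC5 (ENSG00000140853, chromosome 16 from 57023397 to 57117443) had 6.49, 4.98 and 5.89 CPM in shCont. The shp16 libraries were at 4.67, 5.50 and 4.44 CPM, whereas those of shp16+shATR were at 3.11, 2.51 and 2.82 CPM. The shp16+shATR libraries lay below all 6 others, and those of shCont and shp16 overlapped. The log2 fold change was −0.80 ± 0.19 (SE) against shp16 (adjusted p = 0.0280, edgeR) and −1.05 ± 0.19 (SE) against shCont (adjusted p = 0.00184). The difference from shCont passed the threshold in all 22 alternatives. That from shp16 passed in 12 of them and was lost, for example, without any 1 of the shp16 or shp16+shATR libraries, with adjusted p between 0.0571 and 0.138.

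Relative to shp16, TAP1 fell by 0.43 on the log2 scale with shp16+shATR (SE 0.12, adjusted p = 0.0499, edgeR), just under the threshold. TAP2 fell by 0.52 (SE 0.14, adjusted p = 0.0458, edgeR). Each of these calls was lost in 13 of 22 alternatives, among them without shCont replicate 2 or any 1 of the shp16 or shp16+shATR libraries, while the log2 fold changes kept their sign, from −0.48 to −0.37 for TAP1 and from −0.57 to −0.38 for TAP2. Against shCont the differences were −0.03 ± 0.12 (SE) for TAP1 and −0.10 ± 0.14 (SE) for TAP2, with adjusted p of 0.872 and 0.641 (edgeR). The 2 comparisons of TAP1 and TAP2 share the shp16 libraries, and so do not stand as separate evidence.

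For HLA-F the 3 shp16+shATR libraries lay above the 3 shp16 libraries, with a log2 fold change of 0.41 ± 0.17 (SE) that did not pass (adjusted p = 0.205, edgeR). It passed in 5 of 22 alternatives, 1 of them without shCont replicate 1 (0.41, adjusted p = 0.00965). HLA-B differed by 0.07 ± 0.29 (SE, adjusted p = 0.931, edgeR). Without shp16 replicate 1 the HLA-B difference was −0.25, that of HLA-C changed from 0.05 to −0.29, and that of B2M from 0.08 to −0.20, none of which passed the threshold. In a fit of only these groups without shp16 replicate 1, HLA-C and B2M passed, at −0.29 (adjusted p = 0.0214, edgeR) and −0.20 (adjusted p = 0.0446). With both libraries that stood apart left out, HLA-C and B2M were lower in shp16+shATR than in shp16, by −0.29 (adjusted p = 0.0141, edgeR) and −0.21 (adjusted p = 0.0355).

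**Figure D3:**
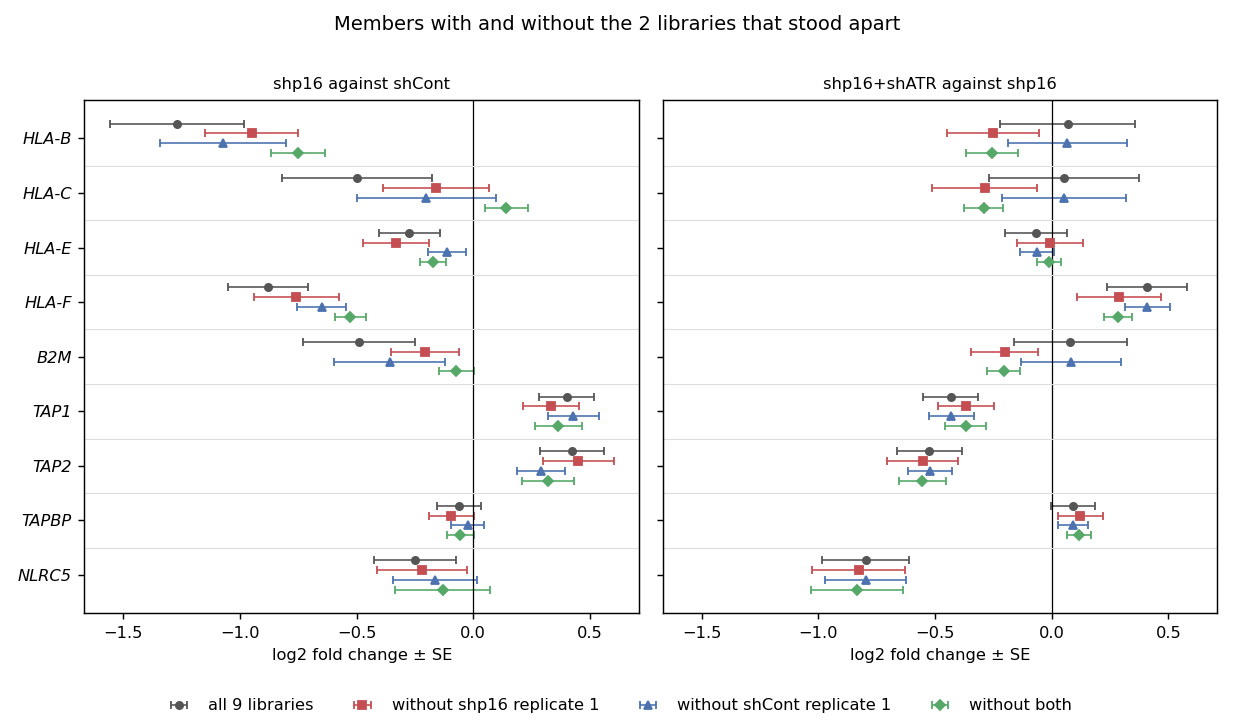
Log2 fold change ± SE of each member for shp16 against shCont (left) and for shp16+shATR against shp16 (right), with all 9 libraries, without shp16 replicate 1, without shCont replicate 1 and without both. In the second comparison TAP1 stays between −0.43 and −0.37 over the 4 analyses and TAP2 between −0.55 and −0.52, whereas in the first HLA-C goes from −0.50 to 0.14.

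Against shCont, shp16+shATR cells had lower HLA-B and NLRC5 mRNA. Of the 9 members, 2 were called lower, against 12.7% of all genes tested. By edgeR 0 were called higher, against 10.9% of all genes, and 0 had an unadjusted p under 0.05 in that direction or were called higher by DESeq2. The median log2 fold change was −0.41, against −0.02 over all genes. For 5 of 9 members, all of them lower, the libraries did not overlap, against 41.5% of all genes. HLA-B had a log2 fold change of −1.20 ± 0.29 (SE, adjusted p = 0.0107, edgeR), and without shp16+shATR replicate 3 it just missed the threshold (−1.12, adjusted p = 0.0504). HLA-E was at 251, 241 and 262 CPM in shp16+shATR, below all shCont libraries, with −0.34 ± 0.13 (SE, adjusted p = 0.0865). HLA-F was at −0.47 ± 0.17 (SE, adjusted p = 0.0682), HLA-C at −0.45 ± 0.32 (SE, adjusted p = 0.351) and B2M, at 337, 354 and 283 CPM, at −0.41 ± 0.24 (SE, adjusted p = 0.252). HLA-F passed without shCont replicate 3 (−0.60, adjusted p = 0.0257, edgeR) and B2M without shp16 replicate 1 (−0.41, adjusted p = 0.0460). With both libraries that stood apart left out, HLA-B, HLA-E, HLA-F, B2M and NLRC5 were called lower in this comparison, 5 of the 9 members, against 23.2% of all genes. Without shCont replicate 1 alone the differences were smaller and did not pass, at −0.24 for HLA-F (adjusted p = 0.101, edgeR), −0.18 for HLA-E (0.117), −0.15 for HLA-C (0.747) and −0.28 for B2M (0.415). This comparison shares the shCont libraries with the first and the shp16+shATR libraries with the second.

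**Figure D4:**
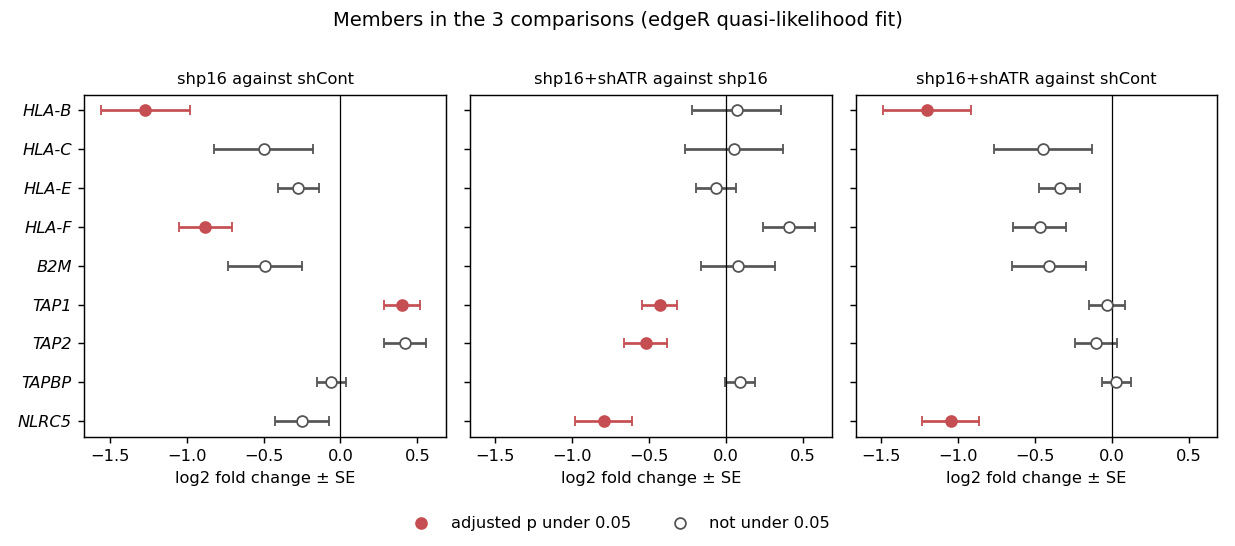
Log2 fold change ± SE of the 9 members in the 3 comparisons, from the edgeR fit of all 9 libraries; red points have an adjusted p under 0.05. HLA-B is lower than in shCont in both groups with the p16 hairpin. TAP1 is called in both comparisons that involve shp16 with opposite signs, and NLRC5 is lower in both comparisons of shp16+shATR.

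On the FPKM scale, which allows levels of different genes to be compared, the members spanned from B2M, at 185 ± 23.2 FPKM in shCont, to NLRC5, at 0.840 ± 0.0796 (SD, n = 3 each). Between them in shCont lay HLA-E at 122 ± 18.1 FPKM, HLA-F at 79.5 ± 17.9, HLA-C at 50.3 ± 14.5, TAPBP at 41.9 ± 0.739, HLA-B at 27.2 ± 6.07, TAP1 at 7.73 ± 0.771 and TAP2 at 2.38 ± 0.453. The ranges of HLA-F and HLA-C overlapped, as did those of HLA-C and TAPBP, and no other neighbours in this order overlapped. In shp16 the order was the same except that TAPBP, at 40.0 ± 0.936 FPKM, stood above HLA-C, at 36.2 ± 17.7. In that group the range of B2M, from 70.8 to 166 FPKM, overlapped that of HLA-E, and the range of HLA-B, from 5.35 to 15.2 FPKM, overlapped that of TAP1, from 9.77 to 10.5 FPKM. HLA-F and TAPBP also overlapped, as did TAPBP and HLA-C. In shp16+shATR, with TAPBP again above HLA-C, none of the neighbouring ranges overlapped. The FPKM of B2M divided by the summed FPKM of HLA-B, HLA-C, HLA-E and HLA-F averaged 0.668 ± 0.0483, 0.674 ± 0.195 and 0.685 ± 0.0670 in shCont, shp16 and shp16+shATR (SD, n = 3 each), with 0.448 in shp16 replicate 1. The FPKM of TAP1 divided by that of TAP2 averaged 3.34 ± 0.762, 3.23 ± 0.374 and 3.44 ± 0.0892 in the same order. Neither ratio separated the groups, with exact permutation p from 0.4 to 1 over the 6 comparisons.

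**Figure D5:**
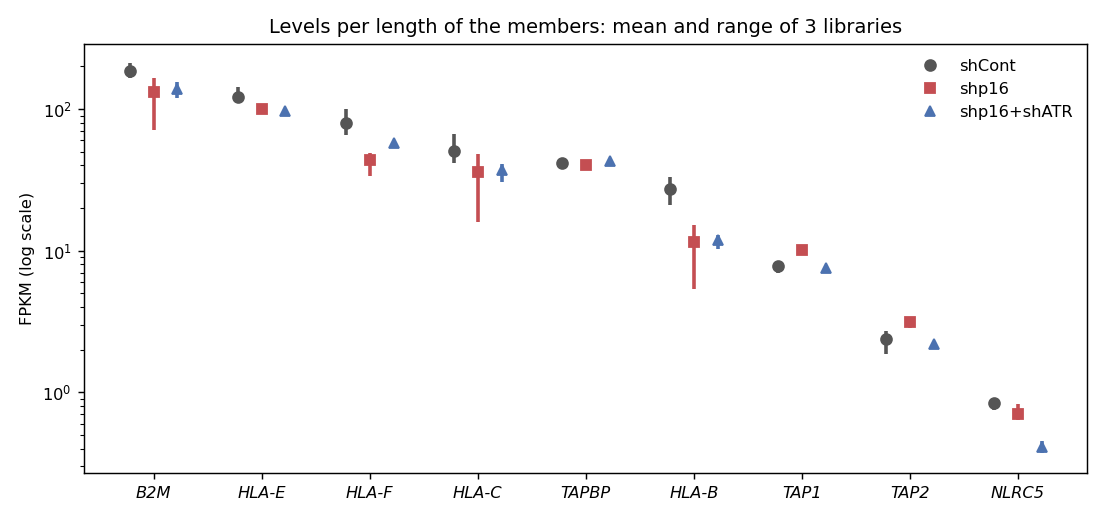
FPKM of the 9 members on a log axis, in the order of their shCont means; points are means and lines the range of the 3 libraries of a group. By mean, B2M is highest and NLRC5 lowest in each group, and the widest ranges are those of HLA-B, HLA-C and B2M in shp16.

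Across the 9 libraries the log2 CPM of B2M and HLA-C correlated at r = 0.98, and those of B2M and HLA-B at r = 0.92. TAP1 and TAP2 correlated at r = 0.75, and HLA-F and TAP2 at r = −0.74. A search of 10729 genes covered those tested with a mean of at least 5 CPM and left out the 9 members. It used the mean of the members' log2 CPM, each first standardised over the 9 libraries. The 5 genes most like that mean were TCEAL8 (r = 0.99), P4HB (r = 0.99), MSC (r = 0.98), BOLA1 (r = 0.98) and NFKBIB (r = 0.98). These correlations are descriptions over 9 libraries that share 3 groups and include both libraries that stood apart.

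In the steps before loading, ERAP2 was lower in both groups with the p16 hairpin than in shCont. ERAP2, an aminopeptidase of the endoplasmic reticulum, had 22, 25.9 and 27.9 CPM in shCont. It was at 7.84, 8.63 and 9.55 CPM in shp16 libraries, and at 9.52, 9.91 and 8.61 CPM in shp16+shATR. Both groups with the p16 hairpin lay well below shCont. Its log2 fold change was −1.54 ± 0.14 (SE) in shp16 relative to shCont (adjusted p = 2.77e-05, edgeR), and −1.43 ± 0.14 (SE) in shp16+shATR relative to shCont (adjusted p = 2.98e-05), and both calls held in all 22 alternatives. It differed by 0.11 ± 0.14 (SE, adjusted p = 0.741) between shp16+shATR and shp16. ERAP1, its partner enzyme, passed only in shp16+shATR against shCont (−0.41 ± 0.14 SE, adjusted p = 0.0483), and missed the threshold there in 14 of 22 alternatives, among them without any 1 of the shp16+shATR libraries.

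Of 5 genes of the inducible proteasome and its activator, edgeR called 0 in any of the comparisons. At an unadjusted p under 0.05 there was 1 gene, lower in shp16+shATR against shp16, and DESeq2 called 0. Among them PSMB8, a catalytic subunit of the immunoproteasome encoded next to TAP1, had 35.0 ± 6.97, 41.2 ± 1.20 and 33.5 ± 1.30 CPM in shCont, shp16 and shp16+shATR (SD, n = 3 each). Of 4 genes listed for the constitutive proteasome (PSMB5, PSMB6, PSMB7 and the activator PSME3), edgeR and DESeq2 also called 0, with 0 at an unadjusted p under 0.05. Of 7 folding and loading partners, HSPA5, an endoplasmic reticulum chaperone, fell, by −0.38 ± 0.10 (SE, adjusted p = 0.0213, edgeR) in shp16 and −0.45 ± 0.10 (SE, adjusted p = 0.00589) in shp16+shATR against shCont. The first of these calls was lost in 7 of 22 alternatives, among them without shp16 replicate 2, without shp16 replicate 3 and without shp16+shATR replicate 1. The other 6 genes did not pass.

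Of 15 transcription factors known to act on class I promoters, edgeR called 0 in shp16 against shCont, where 1 had an unadjusted p under 0.05 and DESeq2 called 0. ATF1 and NFYA, which bind CRE and CCAAT sequences, were higher in shp16+shATR than in shCont, each by 0.36 on the log2 scale (adjusted p = 0.0278 and 0.0415, edgeR). These calls were lost in 9 and 14 of 22 alternatives, in both genes without shCont replicate 2 or any 1 of the shp16+shATR libraries, and for NFYA also without shp16 replicate 2 or 3. IRF1, an activator of class I genes, was at 5.30 ± 1.53, 4.68 ± 0.359 and 5.52 ± 0.305 CPM in shCont, shp16 and shp16+shATR and did not pass in any comparison.

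Of 7 interferon receptors and kinases, 2 fell and 1 rose in shp16 against shCont. Over all genes tested, 7.59% were called lower and 7.23% higher. IFNGR1 and IFNGR2, the chains of the interferon-gamma receptor, fell by 0.53 (adjusted p = 0.0265, edgeR) and by 0.46 (adjusted p = 0.0234). JAK2, a kinase of that receptor, had a log2 fold change of 1.06 ± 0.27 (SE, adjusted p = 0.0232), and 0.72 without shCont replicate 1, where JAK2 was at 8.88 CPM against 22.9 and 23.6 in the other shCont libraries. IFNAR1, a chain of the type I interferon receptor, was higher in shp16+shATR than in shp16 by 0.44 ± 0.12 (SE, adjusted p = 0.0458, edgeR), and TYK2 was lower in shp16+shATR than in shCont by −0.41 ± 0.10 (SE, adjusted p = 0.0151). The calls of IFNGR1, IFNGR2 and JAK2 were lost in 10, 6 and 6 of 22 alternatives, in each gene without shp16 replicate 1 and without shp16 replicate 2. IFNAR1 lost its call in 12, among them without shCont replicate 2 or any 1 of the shp16 or shp16+shATR libraries, and TYK2 in 4, without any 1 of the shp16+shATR libraries.

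Of 11 other class I and class I-like genes, 7 were tested. MICB, a stress-induced ligand of the NKG2D receptor, had 17.4, 19.1 and 18.3 CPM in shCont. The levels were 30.0, 38.2 and 33.4 CPM with shp16, and 32.8, 31.4 and 33.3 CPM with shp16+shATR. Both groups with the p16 hairpin lay above shCont. It rose by 0.89 ± 0.12 (SE, adjusted p = 0.000416, edgeR) in shp16 and by 0.83 ± 0.12 (SE, adjusted p = 0.000421) in shp16+shATR, and both calls held in all 22 alternatives. HFE, a regulator of iron uptake, was lower in shp16+shATR than in shCont by −0.57 ± 0.13 (SE, adjusted p = 0.00931), and ULBP2, another NKG2D ligand, by −0.98 ± 0.26 (SE, adjusted p = 0.0172), at 2.32 ± 0.446 and 4.56 ± 1.14 CPM. The ULBP2 call was lost without shp16+shATR replicate 2 (−0.83, adjusted p = 0.0813).

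The MHC class II genes, which present peptides from outside the cell, had negative log2 fold changes in shp16 against shCont in all 9 tested. Of these 9, 6 passed the threshold, against 7.59% of all genes called lower. Their median log2 fold change was −0.995, against −0.02 over all genes. HLA-DRA, the alpha chain of HLA-DR, had 20.5, 13 and 15.4 CPM in shCont and 2.86, 2.66 and 3.75 CPM in shp16, a log2 fold change of −2.40 ± 0.20 (SE, adjusted p = 2.01e-05, edgeR). Its regulator CIITA went from 8.65 ± 1.37 CPM to 3.03 ± 1.18 (SD, n = 3 each), with −1.51 ± 0.27 (SE, adjusted p = 0.00330), and the invariant chain CD74 had −1.01 ± 0.22 (SE, adjusted p = 0.00907). HLA-DRB1 was at a low level, 1.27 ± 0.889 and 0.145 ± 0.0926 CPM (adjusted p = 0.0120, edgeR), and its call was lost without shp16 replicate 1 or 3 (adjusted p = 0.0571 and 0.0502). In shp16+shATR against shp16 edgeR called 0 of 9, with 0 at an unadjusted p under 0.05 and 0 by DESeq2. Against shCont all 9 had negative log2 fold changes in shp16+shATR, and 7 of 9 passed the threshold, against 12.7% of all genes called lower. These were led by HLA-DRA (−2.32 ± 0.20 SE, adjusted p = 1.58e-05, edgeR), HLA-DRB1, CD74 and HLA-DMA.

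Markers of other cell types were examined because class I and class II genes are high in leukocytes. Of 10 leukocyte markers, 2 had enough counts to be tested, and the T cell and leukocyte genes PTPRC, CD3D and CD3E had no count in any library. The summed level of the list was 3.19 to 5.78 CPM in shCont, 13.1 to 14.8 CPM for shp16 libraries, and 35.7 to 42.7 CPM for shp16+shATR libraries. Most of this sum was ITGAX, an integrin of myeloid cells, at 3.46 ± 0.950, 13.3 ± 1.00 and 39.1 ± 3.61 CPM (SD, n = 3 each). Of 5 endothelial and keratinocyte markers in the table, 4 were tested. The summed level of this list was 21.8 to 33.9 CPM in shCont, 29.6 to 42.0 in shp16 and 31.4 to 39.2 in shp16+shATR. Most of this sum was KRT10, at 25.7 ± 5.98, 27.8 ± 6.72 and 29.4 ± 3.52 CPM in the same order (SD, n = 3 each). KRT10 did not pass the threshold in any comparison. KRT5 was without a count in shCont and at 2.03, 2.99 and 2.05 CPM in shp16, and KRT14 was at 2.96, 2.09 and 2.10 CPM in shp16 against at most 0.154 in shCont. Among the melanoma markers S100B fell by 0.68 (adjusted p = 0.0130, edgeR) with shp16, and with shp16+shATR it was 0.67 higher than in shp16 (adjusted p = 0.0254). Both S100B calls were lost without shp16 replicate 1 (adjusted p = 0.0511 and 0.0891), and the second also without any 1 of the other shp16 or shp16+shATR libraries. The part of other cells in the class I results was not tested. In bulk RNA, fewer cells that express a gene and less of its RNA per cell cannot be told apart.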

How the data were processed

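RNA from 9 SKMEL28 libraries (3 each of shCont, shp16 and shp16+shATR) was sequenced at Novogene. The authors deposited raw read counts per gene, without normalization, and FPKM values made from them; the submitters' processing notes name STAR 2.6.1, DESeq2 and GRCh38, but the deposited gene coordinates are those of GRCh37. The 3 shp16+shATR count columns share 1 name and were matched to replicates through the FPKM columns, with a largest relative difference of 4.22e-07. The counting program and the use of strand are not given in the sources used here.

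Counts were normalized by TMM, filtered with filterByExpr and fitted with the quasi-likelihood test of edgeR 4.0.16 (R 4.3.3) over all 9 libraries, with 1 coefficient per group and Benjamini-Hochberg adjustment over 15776 genes at 0.05. The biological coefficient of variation was 0.149. Replicate pairs differed by 1.94 to 83.4 times the chi-square expected from sampling noise, so none was treated as 1 library. Ratios were tested by exact permutation (scipy 1.17.1). The procedure was also run on simulated counts. These held no libraries that stand apart and no trends with GC content or length, so they do not test how such features affect the calls.

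The 9 members were all named in each comparison, together with CDKN2A, ATR, up to 4 genes passing the threshold from each other list, and 5 genes most correlated with the members. HLA-DMA, PSMB8, PSMB9, IRF1, PMEL and KRT10 are named beside them. The choice of PSMB8, IRF1, PMEL and KRT10 followed the sight of their values. The result of 1 gene of these lists is not reported here. The members and lists were chosen with earlier results of these data known.

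The fit was repeated in 22 other ways. Tools and scaling were varied (DESeq2 1.42.0, upper-quartile scaling, library size alone, and limma 3.58.1 on log2 FPKM to which 1 or 0.1 was added), as were the filter (none, or 10 or more counts in all libraries), the threshold (adjusted p of 0.01) and the model (2 groups only, or a replicate block). Each library was omitted once. The remaining ones were chosen after seeing the data: omitting shp16 replicate 1 together with shCont replicate 1, omitting shp16 replicate 1 from fits of 2 groups, and splines that take out each library's dependence on GC content and length.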

Additional observations from a re-analysis of the deposited data

How the results depend on the processing

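The number of members called was 3 in shp16 against shCont (the first comparison), 3 in shp16+shATR against shp16 (the second) and 2 in shp16+shATR against shCont (the third). It was 1, 0 and 1 at an adjusted p of 0.01, and 5, 6 and 5 with shp16 replicate 1 and shCont replicate 1 both left out. Over all genes the calls were 2339, 981 and 3724 in the main analysis, 994, 309 and 1974 at 0.01, and 5264, 4304 and 7130 of 16104 genes with both libraries left out. When only the groups compared were fitted without shp16 replicate 1, 0 members were called in the first comparison and 6 in the second. These fits called 594 of 15654 and 4371 of 15680 genes. The second comparison gave 1 member with upper-quartile normalization and 0 with limma on log2 FPKM with 1 or with 0.1 added. Calls over all genes were 984, 901 and 805 of 15776. The third gave 5 members with no filter on low counts and 4 with GC content and length trends removed. Calls over all genes were 4275 of 30291 and 5168 of 15306. Leaving out single libraries gave 0 to 4 members in the second comparison (0 without any 1 of the shp16 or shp16+shATR libraries, 4 without shCont replicate 1). Over all genes the fits with 0 members had 292 to 508 calls, and that with 4 had 3223 of 16184. The third comparison gave 1 to 3 members (1 without shp16+shATR replicate 3, against 2410 of 16201 genes). It gave 3 without shCont replicate 3 and without shp16 replicate 1, with 3652 and 3935 calls over all genes.

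The replicate numbers did not pair the libraries. Deviations of same-numbered libraries from their group means correlated between −0.53 and 0.46 across 10737 genes, and those of differently numbered libraries between −0.54 and 0.61. The highest value was that of shp16 replicate 1 with shp16+shATR replicate 3. In the latter library HLA-B, HLA-C and B2M were at −0.25, −0.36 and −0.29 on the log2 scale relative to the other 2 of its group. A fit with the replicate block called 2, 0 and 2 members, against 1807, 612 and 3202 of 15776 genes.

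Changes of sign were found only for members and targeted genes that did not pass the threshold in the main analysis. With both libraries left out, HLA-C became 0.14 and ATR −0.17 in shp16 against shCont, and HLA-B, HLA-C and B2M became −0.26, −0.29 and −0.21 in shp16+shATR against shp16. The fit of only the groups compared without shp16 replicate 1 gave the latter 3 genes −0.26, −0.29 and −0.20. With GC content and length trends removed, TAP1 was 0.0110 in the third comparison. When single libraries were left out, the second comparison ranged from −0.25 to 0.31 for HLA-B, from −0.29 to 0.29 for HLA-C and from −0.20 to 0.25 for B2M. The third ranged from −0.109 to 0.0102 for TAP1 and from −0.0111 to 0.0670 for TAPBP, and the first from −0.12 to 0.33 for ATR. The cause was not tested. Over the members, 501 of the repeated values kept their direction and side of the threshold, 55 lost and 23 gained a call, and 15 changed sign.

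NLRC5 had the lowest level of the members, under 7 CPM, and with 1 added to FPKM its log2 fold changes are smaller because of the pseudocount.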
